A study of Mus musculus with 3 samples.

Results

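The genes described are those of the mouse major histocompatibility complex (MHC) and of antigen processing. They are the 34 genes of the deposited tables whose symbol starts with H2-, together with Cd74, Ciita, B2m, Tap1, Tap2, Tapbp, Psmb8, Psmb9, Psmb10, Nlrc5 and Erap1. That made 45 of 32285 genes, chosen by name, with earlier results of these data known. They were followed through single cells of mouse cornea and limbus, the rim that joins the cornea to the white of the eye. The cells were measured as 3 droplet libraries (10x Genomics), 1 for each group, all of genotype wt. The first group had been injured with nitrogen mustard (NM), a DNA-alkylating blistering agent, and treated with losartan, an angiotensin receptor blocker. The second had been injured with NM and treated with saline, and the third was uninjured. The sources used here do not give the number of animals behind a library, their age, sex or strain, the time after injury, or the dose and route of losartan. With 1 library for each group there was no replicate check, and no test between animals could be made. Intervals are exact 95% intervals for counting error only.

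MHC class I molecules sit on nearly every nucleated cell and show peptides from the cell's own proteins to CD8 T cells. A class I molecule is a heavy chain (H2-K1 and H2-D1 are the classical ones) bound to the light chain B2m. Its peptides are cut by the proteasome, whose catalytic subunits Psmb8, Psmb9 and Psmb10 replace the standard ones under interferon, pumped into the endoplasmic reticulum by Tap1 and Tap2, trimmed by Erap1 and loaded with the help of Tapbp (tapasin). MHC class II molecules are made mainly by professional antigen-presenting cells, foremost dendritic cells, and show peptides from ingested material to CD4 T cells. Their chains (H2-Aa, H2-Ab1, H2-Eb1) are held by the invariant chain Cd74 until H2-DM exchanges the leftover fragment for a peptide, which H2-O restrains. Ciita is the master activator of the class II genes and Nlrc5 its counterpart for class I.

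The losartan library held 4919 cells after filtering, the saline library 5800 and the uninjured library 11233, with medians of 6083.0, 4107.5 and 11540.0 UMIs (transcript molecules counted by barcode) per cell in the same order. Cell classes were rebuilt by clustering on genes other than the 45, and were named from marker lists. Epithelial-like cells numbered 1904, 1146 and 7986 in the losartan, saline and uninjured libraries, and stromal fibroblast-like cells 721, 699 and 429. Macrophage or monocyte-like cells, called macrophage-like from here on, numbered 397, 661 and 13, and dendritic-like cells 90, 93 and 5. Neutrophil-like cells numbered 1375 and 2985 in the losartan and saline libraries, and no uninjured cell fell in that class. No cluster met the markers of T, NK or B cells. Clusters that passed no naming rule held 4.51%, 2.02% and 23.1% of the cells. The libraries shared 7 barcodes (losartan and saline), 28 (losartan and uninjured) and 21 (saline and uninjured).

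Of the 45 genes, 39 lie on chromosome 17 between positions 33915899 and 37483552 of GRCm38 (GENCODE M21 annotation), the region that holds the MHC. The others are dispersed: B2m on chromosome 2 (122147686 to 122153083), Nlrc5 and Psmb10 on chromosome 8, Erap1 on chromosome 13 and Ciita on chromosome 16 (10480059 to 10528418). Cd74 also lies outside the complex. Within the complex the processing genes stand side by side with class II genes. Psmb9 (34181987 to 34187764, minus strand) and Tap1 (34187553 to 34197225, plus strand) overlap head to head, so reads of the overlap can be told apart only by strand. They are followed by Psmb8 (34197721 to 34201454) and Tap2 (34203527 to 34216321). H2-Aa (34282744 to 34287823, minus strand) and H2-Eb1 (34305867 to 34316674, plus strand) follow. The 5 exchange genes lie in the same stretch of the chromosome.

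The stretch of 150 bases before the start is printed for 7 members, because the class II chains and their exchange genes are known to share the X and Y boxes, the sites through which Ciita acts, and because the class I promoters carry the same kind of Y box. Sequences are from RefSeq (GRCm38.p6), run 5′ to 3′ on the gene's own strand and end on the base before the start. Capitals mark matches to the motifs searched on both strands: CCAAT, which is the core of the Y box and reads ATTGG when it lies on the opposite strand; the X box cores CTAGCAAC and CCTAGCAA, which overlap each other by 7 letters; and the interferon response motif, where GAAA occurs again after a gap of any 2 bases. The class II chains and exchange genes shown are H2-Eb1 (chr17:34305717-34305866, plus strand), H2-Aa (chr17:34287824-34287973, minus strand), H2-Ob (chr17:34238755-34238904, plus strand) and H2-DMb1 (chr17:34153041-34153190, plus strand).
H2-Eb1: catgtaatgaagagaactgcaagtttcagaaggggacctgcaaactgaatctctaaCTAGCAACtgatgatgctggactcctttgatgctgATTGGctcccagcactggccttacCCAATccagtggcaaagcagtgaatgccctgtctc
H2-Aa: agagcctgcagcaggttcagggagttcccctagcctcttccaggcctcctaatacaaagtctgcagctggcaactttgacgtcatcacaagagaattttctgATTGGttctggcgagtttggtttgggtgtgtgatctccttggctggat
H2-Ob: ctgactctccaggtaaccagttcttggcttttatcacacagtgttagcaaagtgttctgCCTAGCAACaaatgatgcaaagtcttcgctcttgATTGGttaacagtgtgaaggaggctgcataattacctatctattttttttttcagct
H2-DMb1: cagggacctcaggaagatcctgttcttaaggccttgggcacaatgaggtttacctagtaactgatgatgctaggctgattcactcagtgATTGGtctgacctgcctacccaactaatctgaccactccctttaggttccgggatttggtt

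All 4 have ATTGG in the printed direction, with its first base 59 bases before the start in H2-Eb1, 48 in H2-Aa, 57 in H2-Ob and 61 in H2-DMb1. H2-Eb1 and H2-Ob also have the X box letters further upstream, with CTAGCAAC starting 94 and 90 bases before the start. The class I heavy and light chains are shown by B2m (chr2:122147537-122147686, plus strand), H2-D1 (chr17:35262944-35263093, plus strand) and H2-T23 (chr17:36032702-36032851, minus strand).
B2m: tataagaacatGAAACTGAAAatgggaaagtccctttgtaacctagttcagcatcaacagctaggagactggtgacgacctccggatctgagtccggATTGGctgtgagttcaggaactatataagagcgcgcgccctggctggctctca
H2-D1: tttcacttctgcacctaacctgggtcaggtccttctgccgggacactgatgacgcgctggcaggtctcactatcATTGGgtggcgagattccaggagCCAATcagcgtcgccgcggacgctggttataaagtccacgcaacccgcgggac
H2-T23: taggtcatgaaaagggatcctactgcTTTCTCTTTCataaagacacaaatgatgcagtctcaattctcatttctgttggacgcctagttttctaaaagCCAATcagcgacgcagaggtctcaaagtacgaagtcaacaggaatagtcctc

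B2m and H2-T23 carry the interferon response motif, starting 139 and 124 bases before the start, and H2-D1 carries CCAAT in both directions. Of the 45 members, 38 had a RefSeq window of 250 bases before to 50 after the start, and H2-Ab1, Ciita, Nlrc5, Tap2, Cd74, H2-Q1 and H2-T24 had none. CCAAT was found in 32 of the 38, against 37.41% of all 32851 windows in the table. The 3 class II chains with a window and the 5 exchange genes all had it. CTAGCAAC was found in 3 members (H2-Eb1, H2-Eb2 and H2-Ob) and in 1.318% of all windows, and CCTAGCAA in 1 member (H2-Ob) and 1.358% of all windows. The interferon response motif was found in 4 members (B2m, Erap1, H2-T23 and H2-T22) and 3.443% of all windows. A match is a run of letters and not a shown binding site.

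Class I RNA was present in every cell class, while class II RNA was concentrated in 2 of them. The class I sum took the UMIs of B2m and the 24 class I heavy chain genes, and the class II sum those of H2-Aa, H2-Ab1, H2-Eb1, H2-Eb2 and Cd74, each as counts per 1000000 UMIs of the class (CPM). UMI counts were not divided by gene length, so both sums are used to compare cell classes and libraries, not one gene with another. Dendritic-like cells had the most class II, 51382 CPM in the losartan library and 48327 CPM in the saline library, with 45908 CPM in the 5 uninjured cells. Macrophage-like cells had 6074 and 4728 CPM in the losartan and saline libraries, and 19314 CPM in the 13 uninjured cells. Among classes of 50 or more cells, neutrophil-like cells followed with 373 CPM under losartan and 458 CPM under saline. The class II sum was 12.4, 18.3 and 0.975 CPM in epithelial-like cells of the losartan, saline and uninjured libraries.

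Class I spanned a much narrower range. Dendritic-like cells had 4872 CPM under losartan, 7501 CPM under saline and 3311 CPM in the uninjured library. Macrophage-like cells had 4680, 6117 and 4297 CPM in the same order, and neutrophil-like cells 2132 and 3214 CPM under losartan and saline. Among the named classes epithelial-like cells had the lowest class I sum in each library, 1088 CPM (1080 to 1097) under losartan, 1534 CPM (1522 to 1546) under saline and 472 CPM (468 to 475) in the uninjured library. In these terms dendritic-like cells held 10.5, 6.44 and 13.9 class II UMIs for each class I UMI in the losartan, saline and uninjured libraries. In macrophage-like cells the ratio was 1.30, 0.773 and 4.49, in neutrophil-like cells 0.175 and 0.142, and in epithelial-like cells 0.0114, 0.0119 and 0.00207.

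**Figure D1:**
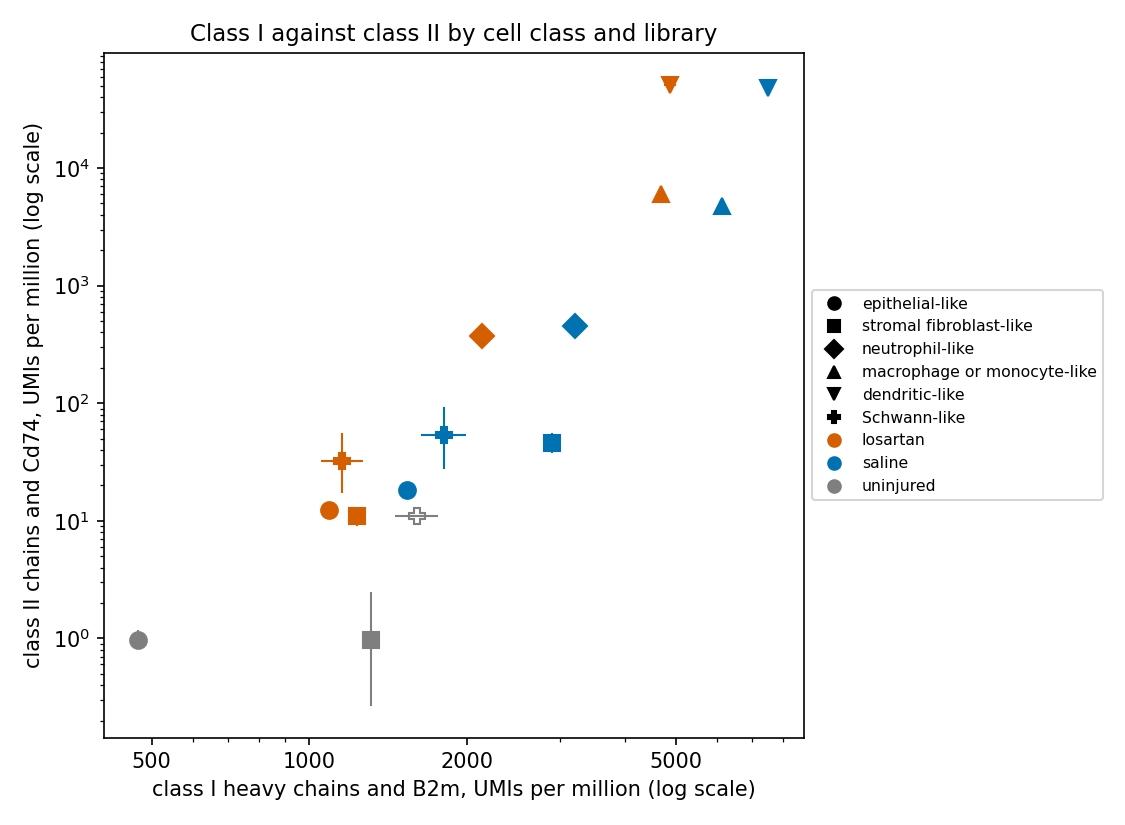
Class I sum (horizontal axis, CPM, log scale) against class II sum (vertical axis, CPM, log scale) for each cell class with 50 or more cells in a library, except mural-like cells, which are not plotted. Bars are exact 95% counting intervals, and the open cross marks 0 class II UMIs, drawn at the level of 3 counts. Dendritic-like and macrophage-like cells lie highest on the class II axis, and within each class the saline point lies to the right of the losartan point.

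A small share of the cells carried most of the class II RNA of each library. Cd74, on chromosome 18 (60803848 to 60812652), is counted in it. Dendritic-like cells gave 67.4% of all class II UMIs in the losartan library, 60.5% in the saline library and 48.6% in the uninjured library. Macrophage-like cells gave another 30.2%, 35.0% and 46.3%. Epithelial-like cells held 52.2% of the class I UMIs in the losartan library, 33.5% in the saline library and 68.4% in the uninjured library. Macrophage-like cells held 18.3%, 33.6% and 0.346% of them, so in the saline library both classes held nearly the same share.

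**Figure D2:**
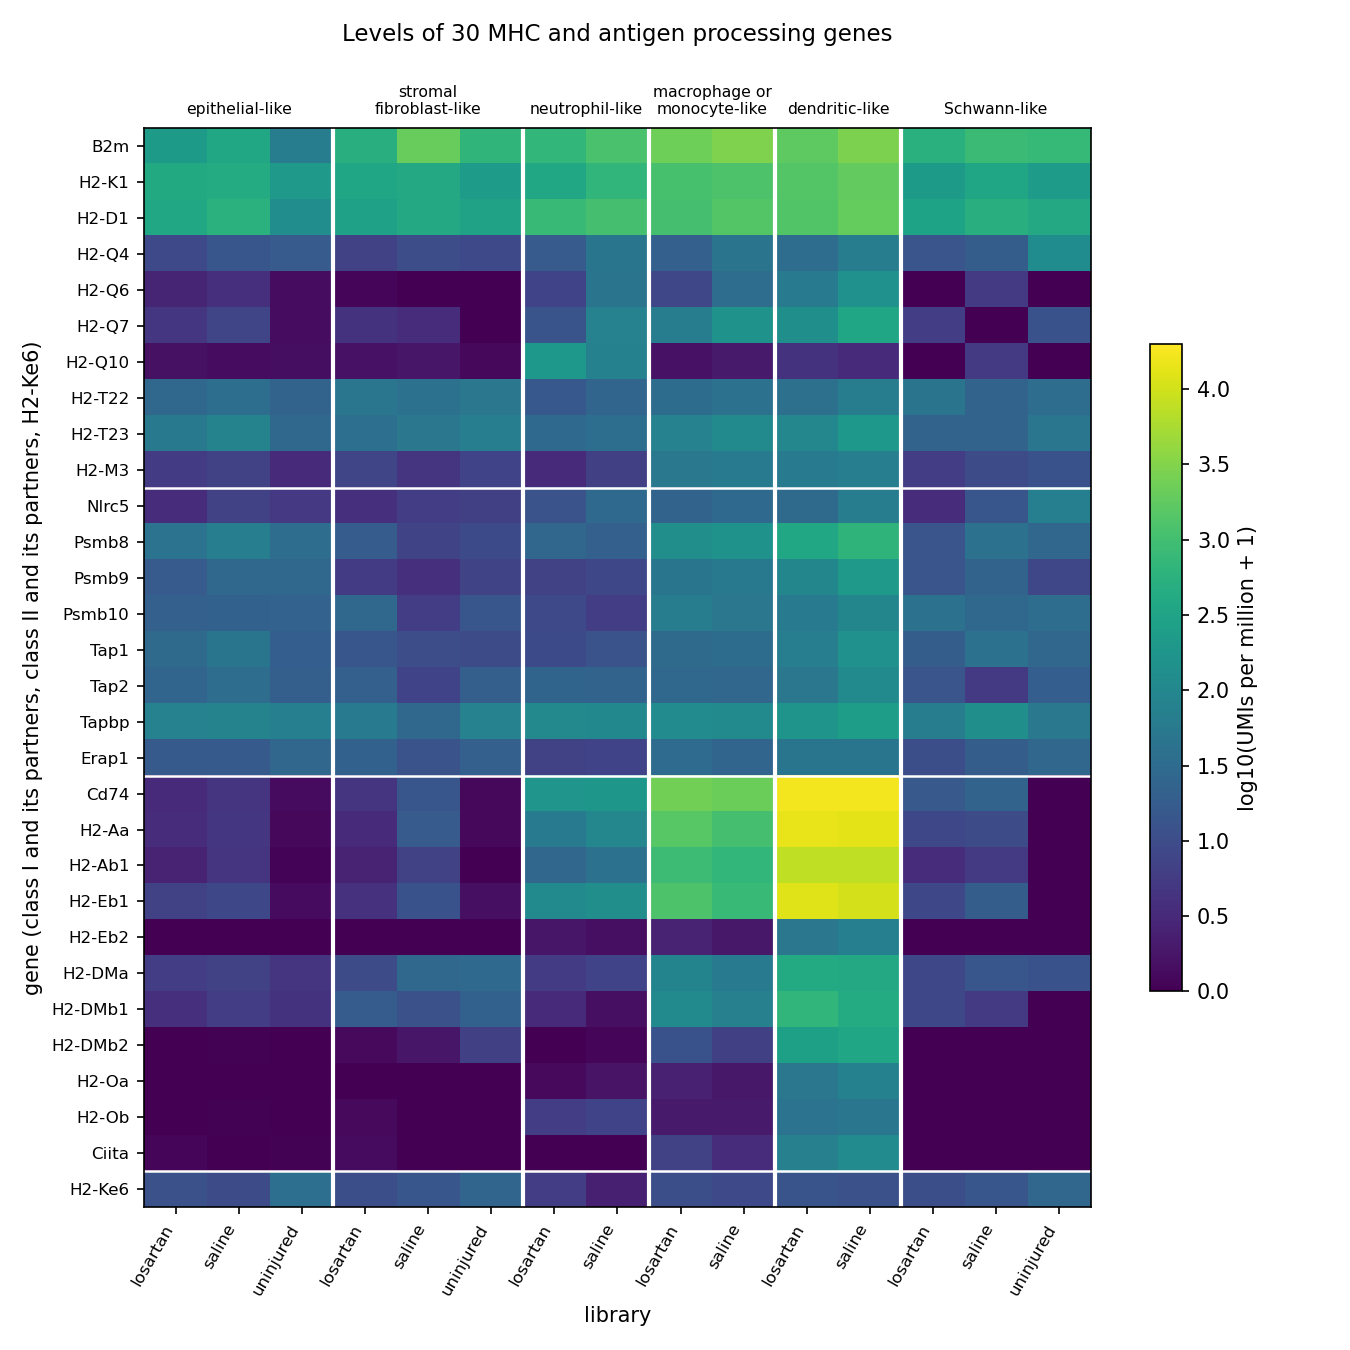
Level of each member that reached 10 CPM in a cell class of a library (rows), as log10 of CPM + 1. Columns are the cell classes and libraries with 50 or more cells, except mural-like cells, which are not plotted. Brighter colours are higher levels. The class II chains, Cd74 and the exchange genes are brighter in the dendritic-like columns than in the epithelial-like and stromal columns, where they are dark. B2m, H2-K1 and H2-D1 lie above the dark end of the scale in all columns.

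Epithelial cells of both injured libraries had more class I RNA than the uninjured library. A gene was counted as higher or lower when CPM + 5 differed 1.5-fold or more and it reached 10 CPM in either library. By that rule 14 of the 45 members were measured in epithelial-like cells of the saline and uninjured libraries, of which 7 were higher and 1 lower under saline, against 20% and 18.0% of all 8869 genes measured. In the losartan library 4 of 14 were higher and 3 lower than in the uninjured library, against 15.1% and 21.6% of all genes. The lower count is near the share of all genes. The 4 were B2m, H2-K1, H2-D1 and H2-T23, and the lower ones were H2-Ke6, Psmb9 and the non-classical chain H2-Q4 (7.77 CPM under losartan and 12.9 CPM under saline, against 16.4 CPM uninjured). The class I sum was 3.25-fold (3.22 to 3.29) the uninjured level under saline and 2.31-fold (2.28 to 2.33) under losartan. The injured and uninjured cells of this class lie in different clusters, numbers 5, 6 and 15 in the injured libraries and 1, 3, 4, 7, 11 and 14 in the uninjured library.

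B2m, the light chain, was furthest above the uninjured level, at 217 CPM under losartan and 377 CPM under saline, against 66.0 CPM in the uninjured library. H2-D1 had 365 and 567 CPM in the losartan and saline libraries, against 125 CPM, and H2-K1 had 409 and 442 CPM, against 211 CPM. H2-T23, which encodes Qa-1, a non-classical class I chain read by NK cell receptors, had 52.9 and 83.0 CPM, against 26.5 CPM. In all 4 genes the saline value was the highest and the uninjured value the lowest. The transporter gene Tap1 was at 29.2 and 46.8 CPM, against 18 CPM, and Tap2 at 24.0 and 33.4 CPM, against 19.3 CPM. Psmb10 was alike in the 3 libraries (20.2, 20.4 and 21.1 CPM), and Tapbp was at 80.0 and 83.3 CPM, against 70.0 CPM. H2-Ke6, which lies in the complex but encodes a hydroxysteroid dehydrogenase, was lower in both injured libraries, with 10.6 and 8.62 CPM against 35.7 CPM.

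The call for the immunoproteasome gene Psmb8 depended on which uninjured clusters were counted. It was at 42.3 and 66.9 CPM in the losartan and saline libraries, against 33.0 CPM in the uninjured library, a ratio of 2.03 (1.93 to 2.13) for saline. With the unnamed clusters that scored closest to epithelium counted in, a choice made after the data were seen, the uninjured level was 64.0 CPM and the ratio 1.04 (1.00 to 1.09). Tap2 was also no longer past 1.5-fold on the CPM + 5 scale, at 33.4 CPM under saline against 22.1 CPM, so 5 members were higher in place of 7. B2m (6.04-fold), H2-K1, H2-D1, H2-T23 and Tap1 (2.26-fold) were past it in both sets of cells. Psmb9 had 16.1 and 26.1 CPM in the losartan and saline libraries, against 27.7 CPM in the uninjured library.

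Between the injured libraries, epithelial class I was lower under losartan. The class I sum was 1088 CPM under losartan and 1534 CPM under saline, a ratio of 0.709 (0.702 to 0.717). No member was higher and 5 of 14 were lower (B2m, H2-D1, H2-T23, Tap1 and Psmb8), against 2.02% and 6.03% of all genes. Their ratios of losartan to saline lay between 0.574 for B2m and 0.643 for H2-D1, while H2-K1 was at 0.926 (0.908 to 0.944). All measured genes together were shifted by -0.10 on the log2 scale, and relative to that shift 1 member was 1.5-fold lower. Cells holding 2 or more UMIs of 5 myeloid genes numbered 51 under losartan and 183 under saline. Without them 4 members were lower, no longer Tap1, against 6.95% of all genes. The difference in the class I sum was present in both large clusters. Cluster 5 (898 losartan and 399 saline cells) had 886 and 1220 CPM of class I, and cluster 6 (817 and 425 cells), which is high in the cornified envelope genes Sprr2f and Sprr1a, had 1329 and 1923 CPM. In the shallow cluster 15 (189 and 322 cells) the values were 778 and 833 CPM, a ratio of 0.933 (0.814 to 1.07). The unnamed uninjured cluster 12 (634 cells), which scored closest to epithelium, had 930.0 CPM of class I, above the losartan value of cluster 5 and both values of cluster 15.

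Psmb8 was higher in cluster 6 than in cluster 5 of both injured libraries. In cluster 6 Psmb8 had 70.7 CPM under losartan and 125 CPM under saline, and Tap1 28.8 and 58.9 CPM. In cluster 5 Psmb8 had 18.2 and 17.3 CPM and Tap1 29.6 and 36.8 CPM. By the fold rule 7 of 14 measured members were lower under losartan in cluster 6 (B2m, Psmb9, Tap1, Psmb8, Tap2, H2-D1 and H2-T23), against 7.39% of all genes. In cluster 5 it was 1 of 15 (B2m), against 5.87%, which is near the share of all genes.

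**Figure D3:**
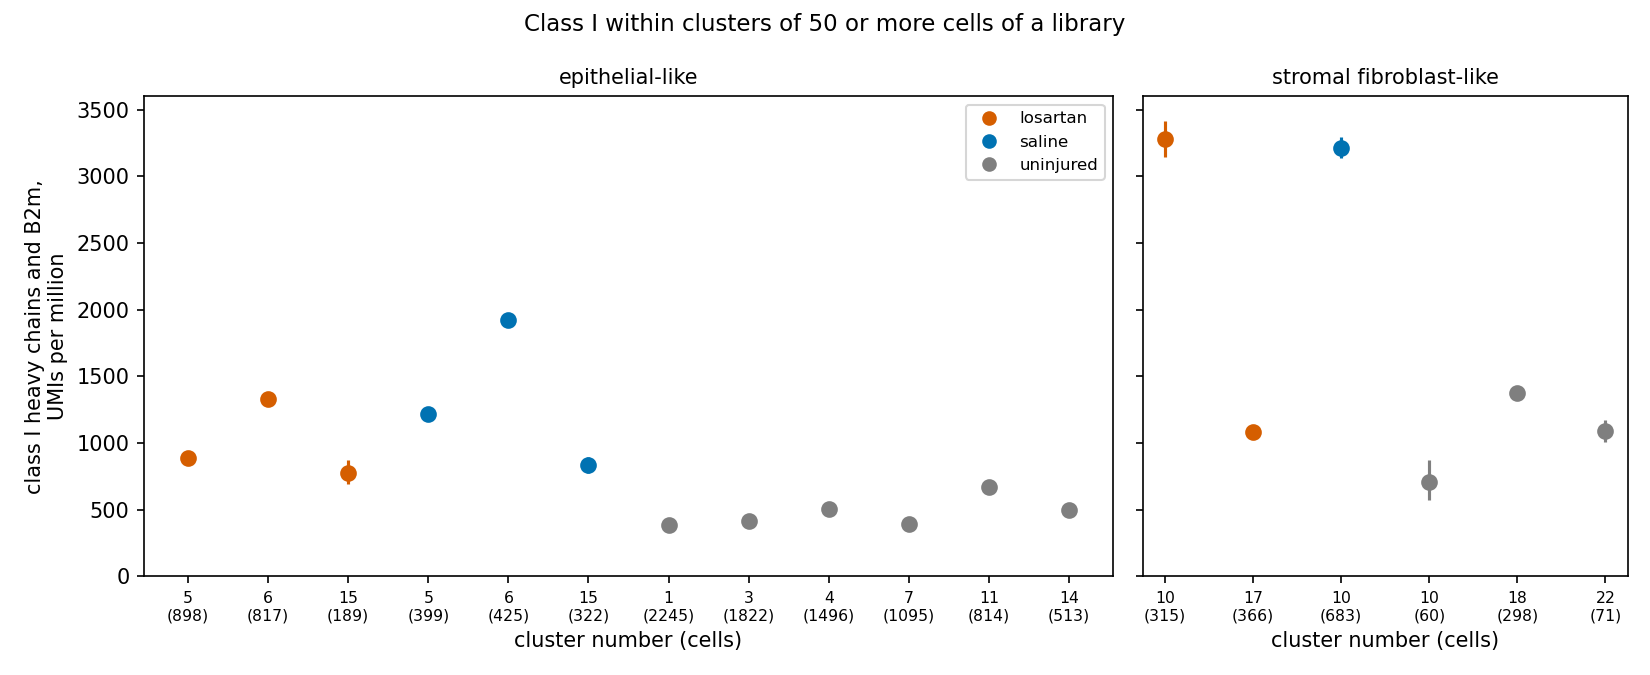
Class I sum (vertical axis, CPM) in each epithelial-like and stromal fibroblast-like cluster with 50 or more cells of a library; the horizontal axis gives the cluster number with its cells in brackets, and bars are exact 95% counting intervals. The epithelial clusters of the injured libraries all lie above the 6 uninjured ones named epithelial-like (385 to 667 CPM; the unnamed uninjured cluster 12 is not plotted), and stromal cluster 10 has nearly the same value under losartan and saline.

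Class II RNA was sparse in epithelial-like cells but above the uninjured level in both injured libraries. The class II sum was 12.7-fold (10.4 to 15.7) the uninjured level under losartan and 18.8-fold (15.4 to 23) under saline. After each cell was thinned to 1500 UMIs, H2-Eb1 was seen in 1.16% of epithelial-like cells under losartan, 1.54% under saline and 0.0507% in the uninjured library (11.9%, 15.4% and 0.413% before thinning). The thinned shares in stromal fibroblast-like cells, which are not known to make class II at rest, were of like size at 0.877%, 1.88% and 0%. The epithelial share was above the stromal one under losartan and below it under saline, so no expression is read from it. Median depths before thinning were 29393, 13261 and 13419.5 UMIs in epithelial-like and 10157, 2770.0 and 10112 UMIs in stromal fibroblast-like cells. Cells holding 2 or more UMIs of 5 myeloid genes numbered 51 of 1904 under losartan, 183 of 1146 under saline and 0 of 7986 in the uninjured library. Without them the class II sum was 12.2 CPM under losartan and 19.7 CPM under saline, against 0.975 CPM.

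In the injured libraries the makeup of the epithelial class II UMIs was not that of dendritic-like cells. H2-Eb1 gave 2.42 UMIs (1.98 to 2.97) for each Cd74 UMI in losartan epithelial-like cells and 2.17 (1.77 to 2.66) in saline ones. Uninjured epithelial-like cells had 0.949 (0.588 to 1.53). In dendritic-like cells of the losartan and saline libraries H2-Eb1 gave 0.733 and 0.651, in macrophage-like cells 0.508 and 0.375, and in neutrophil-like cells 0.633 and 0.726. Stromal fibroblast-like cells had 0.854 (0.528 to 1.37) under losartan and 0.839 (0.478 to 1.46) under saline. Ciita had 9 UMIs over all losartan epithelial-like cells, 1 over the saline ones and 5 over the uninjured ones.

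Among other genes of these pathways in epithelial-like cells, 4 of 11 class I supply genes were higher under saline than in the uninjured library. None was lower, and the shares of all genes were 20% higher and 18.0% lower. The higher ones were the chaperone Calr (672 CPM under saline, 279 CPM uninjured), the disulphide isomerase Pdia3 (982 and 480 CPM), Hspa5 and Tapbpl. Of 8 measured genes of the interferon gamma axis, the receptor genes Ifngr1 (210 and 84.4 CPM) and Ifngr2 (88.4 and 29.6 CPM) were higher and the kinase gene Jak1 lower. These counts are near the shares of all genes. The transcription factor gene Irf1 was at 71.0 CPM under losartan and 114 CPM under saline, against 154 CPM uninjured. By the fold rule it was lower under losartan and within 1.5-fold under saline. Under losartan 1 of 8 measured genes of that axis was higher than uninjured and 3 were lower, against 15.1% and 21.6% of all genes. The co-stimulatory gene Cd80 had 15.1 and 16.3 CPM, against 1.69 CPM.

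In stromal fibroblast-like cells the class I difference followed the clusters that made up the class. The class I sum was 1231 CPM under losartan, 2899 CPM under saline and 1313 CPM in the uninjured library, which gave a losartan to saline ratio of 0.425 (0.412 to 0.437). The saline cells lie almost wholly in cluster 10 (683 of 699 cells), a cluster of shallow cells with a median of 2746 UMIs there. The losartan cells are split between cluster 10 (315 cells) and cluster 17 (366 cells), which is led by Mmp3 and Timp1, genes of a matrix protease and of a protease inhibitor. Most uninjured cells lie in cluster 18 (298 of 429), led by Kera, the gene of the corneal proteoglycan keratocan. Within cluster 10 the class I sum was 3277 CPM under losartan and 3215 CPM under saline, a ratio of 1.02 (0.972 to 1.07). It was 710 CPM in the 60 uninjured cells of that cluster. Cluster 17 had 1085 CPM under losartan and cluster 18 had 1377 CPM in the uninjured library, so for the class as a whole the saline library and cluster 10 cannot be told apart.

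By the fold rule 5 of 17 measured members were higher and 5 lower under losartan than under saline, against 34.8% and 17.5% of all genes. The median gene at 10 CPM or more in both libraries was shifted by 0.39 on the log2 scale. Relative to that shift 2 were higher and 9 lower. The 5 higher by the fold rule are a count under the share of all genes. They were Psmb10 (27.2 CPM under losartan, 5.06 CPM under saline), Tap2 (19.5 and 6.32 CPM), Tapbp (57.8 and 27.8 CPM), Psmb8 and Erap1. The lower ones were B2m (511 and 2012 CPM) and class II genes (Cd74, H2-Aa, H2-Eb1 and H2-DMa). Within cluster 10, B2m was at 1969 and 2322 CPM, H2-K1 at 703 and 400 CPM, and 1 of 13 members (H2-K1) was higher and none lower by 1.5-fold, against 12.2% and 22.3% of all genes there.

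Against the uninjured library, 5 of 15 stromal members were higher under saline and 6 lower, against 13.1% and 36.0% of all genes. The lower count is near the share of all genes. The median gene at 10 CPM or more in both libraries was shifted by -0.45 on the log2 scale. Relative to that shift 2 were lower. The 5 higher ones were B2m (2012 CPM under saline, 649 CPM uninjured), H2-K1 (385 and 226 CPM), Cd74, H2-Aa and H2-Eb1. The last 3 rested on 31, 38 and 26 UMIs under saline and on 1, 1 and 2 UMIs in the uninjured library. Under losartan 2 of 14 were higher than uninjured (Psmb10 and Psmb8) and 3 lower (H2-Ke6, H2-DMa and H2-T23), against 16.6% and 22.1% of all genes. Both counts are near these shares. Leaving out the 23, 31 and 2 cells with myeloid RNA left the class II sum at 10.9, 46.6 and 0.971 CPM in the losartan, saline and uninjured libraries, against 11, 45.9 and 0.967 CPM with them.

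In macrophage-like cells class I was lower and class II higher under losartan than under saline. Under losartan the class I sum was 0.765 (0.753 to 0.777) of the saline value and the class II sum 1.28 (1.27 to 1.30) of it. H2-Eb1 was at 1234 CPM under losartan and 800.1 CPM under saline, H2-Aa at 1539 and 1082 CPM, H2-Ab1 at 869 and 709 CPM and Cd74 at 2429 and 2135 CPM. The exchange genes lay the same way, with H2-DMa at 86.6 and 58.4 CPM, H2-DMb1 at 109.7 and 72.7 CPM and H2-DMb2 at 11.2 and 5.44 CPM. H2-DMb1 and H2-DMb2 share 19.46% and 18.09% of their 60-base stretches, so their reads can be split between them. On the class I side B2m had 2202 and 2973 CPM, H2-D1 1083 and 1434 CPM and H2-K1 1130 and 1263 CPM under losartan and saline.

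Few single members passed the fold rule in macrophage-like cells. Of 24 measured, 2 were higher under losartan (H2-Eb1 and H2-DMb2), near the 7.05% of all genes, and relative to the median gene none was. 3 were lower, against 5.14% of all genes, and all are non-classical class I chains of the H2-Q group. H2-Q6 had 7.20 CPM under losartan and 34.1 CPM under saline, H2-Q7 64.6 and 157 CPM, and H2-Q4 20.1 and 43.4 CPM. H2-Q6 and H2-Q7 encode Qa-2. Of 7 class II supply genes the lysosomal proteases Ctsb (3826 and 2408 CPM) and Lgmn (1615 and 1074 CPM) were higher, against 7.05% of all genes. March1, the gene of a ubiquitin ligase that removes class II from the surface, was lower (38.1 and 75.5 CPM), against 5.14% of all genes. Of 9 interferon gamma axis genes 1 was lower, Irf1 at 39.0 CPM under losartan and 67.4 CPM under saline, against 5.14% of all genes.

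Class II RNA was spread very unevenly among macrophage-like cells. The median cell had 163 CPM under losartan and 255 CPM under saline, while the cell at the 90th percentile had 24384 and 17734 CPM. No class II UMI was seen in 34.3% of losartan and 19.4% of saline cells, with median depths of 10414 and 15308 UMIs. The 68 losartan cells (17.1%) and 95 saline cells (14.4%) at 10000 CPM or more held 88.1% and 85.9% of the class II UMIs. In those cells Ciita was at 32.8 and 13.3 CPM and H2-DMb1 at 492 and 369 CPM. In the 264 and 467 cells under 1000 CPM, Ciita was at 0 (0 UMIs) and 0.270 CPM and H2-DMb1 at 15.7 and 14.2 CPM. The macrophage receptor gene Csf1r was at 294 and 265 CPM in the high cells and at 267 and 232 CPM in the low ones. Of the dendritic markers, Flt3 (4.68 and 11.4 CPM) and Ccr7 (12.9 and 39.8 CPM) were low in the high cells, and the others are not given here. In the dendritic-like class Flt3 was at 130 CPM under losartan and 173 CPM under saline. These ranges were set after the data were seen, and 65 losartan and 99 saline cells lay between them.

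**Figure D4:**
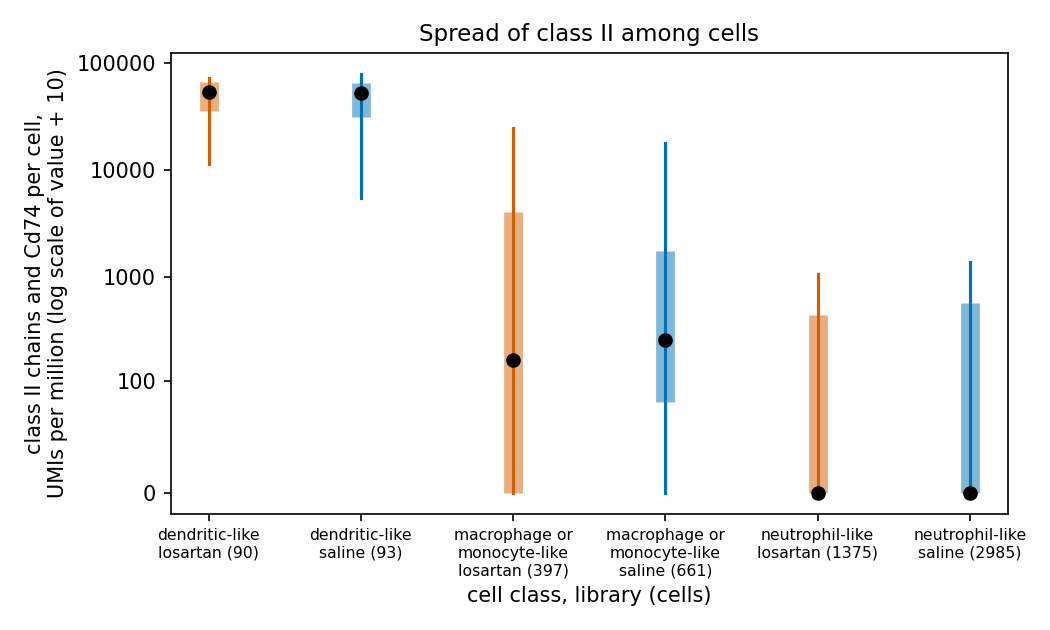
Class II sum per cell (CPM) in dendritic-like, macrophage-like and neutrophil-like cells of the losartan and saline libraries; dots are the median cell, thick bars the 25th to 75th and thin lines the 10th to 90th percentile of cells. Nearly all dendritic-like cells are high, while the median macrophage-like cell is low (163 CPM under losartan, 255 CPM under saline) with a long upper range.

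In dendritic-like cells, the summed class II RNA differed little between the injured libraries, while the class I sum, the immunoproteasome genes and both transporter genes were lower under losartan. The class II sum ratio was 1.06 (1.05 to 1.07) and the class I ratio 0.649 (0.630 to 0.670). Of 29 measured members 14 were lower under losartan and 1 was higher, against 8.15% and 8.92% of all 7608 genes measured. The median log2 ratio was -0.58 over the 29 members and -0.01 over all measured genes. The 14 comprised B2m, 5 of 6 non-classical heavy chains, all 3 immunoproteasome subunits, 3 of 4 supply and loading genes and both regulators.

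Step by step, the immunoproteasome gene Psmb8 was at 382 CPM under losartan and 617 CPM under saline, Psmb9 at 93.3 and 213 CPM and Psmb10 at 57.9 and 91.9 CPM. The transporter genes were at less than their saline level by a like factor, Tap1 at 67.5 and 151 CPM (ratio 0.447, 0.346 to 0.573) and Tap2 at 50.7 and 114 CPM (0.443, 0.328 to 0.590). Tapbp had 166 and 253 CPM, and the trimming gene Erap1 was alike at 45.8 and 45.1 CPM. B2m was at 1678 and 2844 CPM, H2-D1 at 1348 and 1894 CPM and H2-K1 at 1422 and 1883 CPM. The 2 classical heavy chains were within 1.5-fold. The non-classical chains H2-Q6 (57.1 and 149.96 CPM), H2-Q7 (139 and 336 CPM), H2-Q4 (33.0 and 66.5 CPM), H2-T23 (95.7 and 193 CPM) and H2-T22 (37.8 and 62.0 CPM) were all lower. H2-M3, which presents formylated peptides, had 56.3 and 67.6 CPM. The regulators Nlrc5 and Ciita were lower too, at 29.8 and 66.0 CPM and at 74.8 and 118 CPM.

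The class II genes were mixed. Cd74 had 16939.5 CPM under losartan and 16446 CPM under saline, H2-Aa 14275 and 13279 CPM, H2-Eb1 12422 and 10715 CPM and H2-Ab1 7696 and 7817 CPM. All 4 were within 1.2-fold of their saline value. The minor chain gene H2-Eb2 was at 49.9 and 70.5 CPM, a ratio of 0.708 (0.513 to 0.967), which did not pass the fold rule. H2-DMb1 was the 1 higher member, at 678 CPM under losartan and 449 CPM under saline, a ratio of 1.51 (1.37 to 1.67), whereas its neighbour H2-DMb2 was at 275 and 350.1 CPM (0.786, 0.686 to 0.898). H2-Oa and H2-Ob, the 2 chains of the restraining molecule, had 49.1 and 75.5 CPM (0.649, 0.472 to 0.885) and 42.6 and 47.9 CPM (0.889, 0.619 to 1.27).

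**Figure D5:**
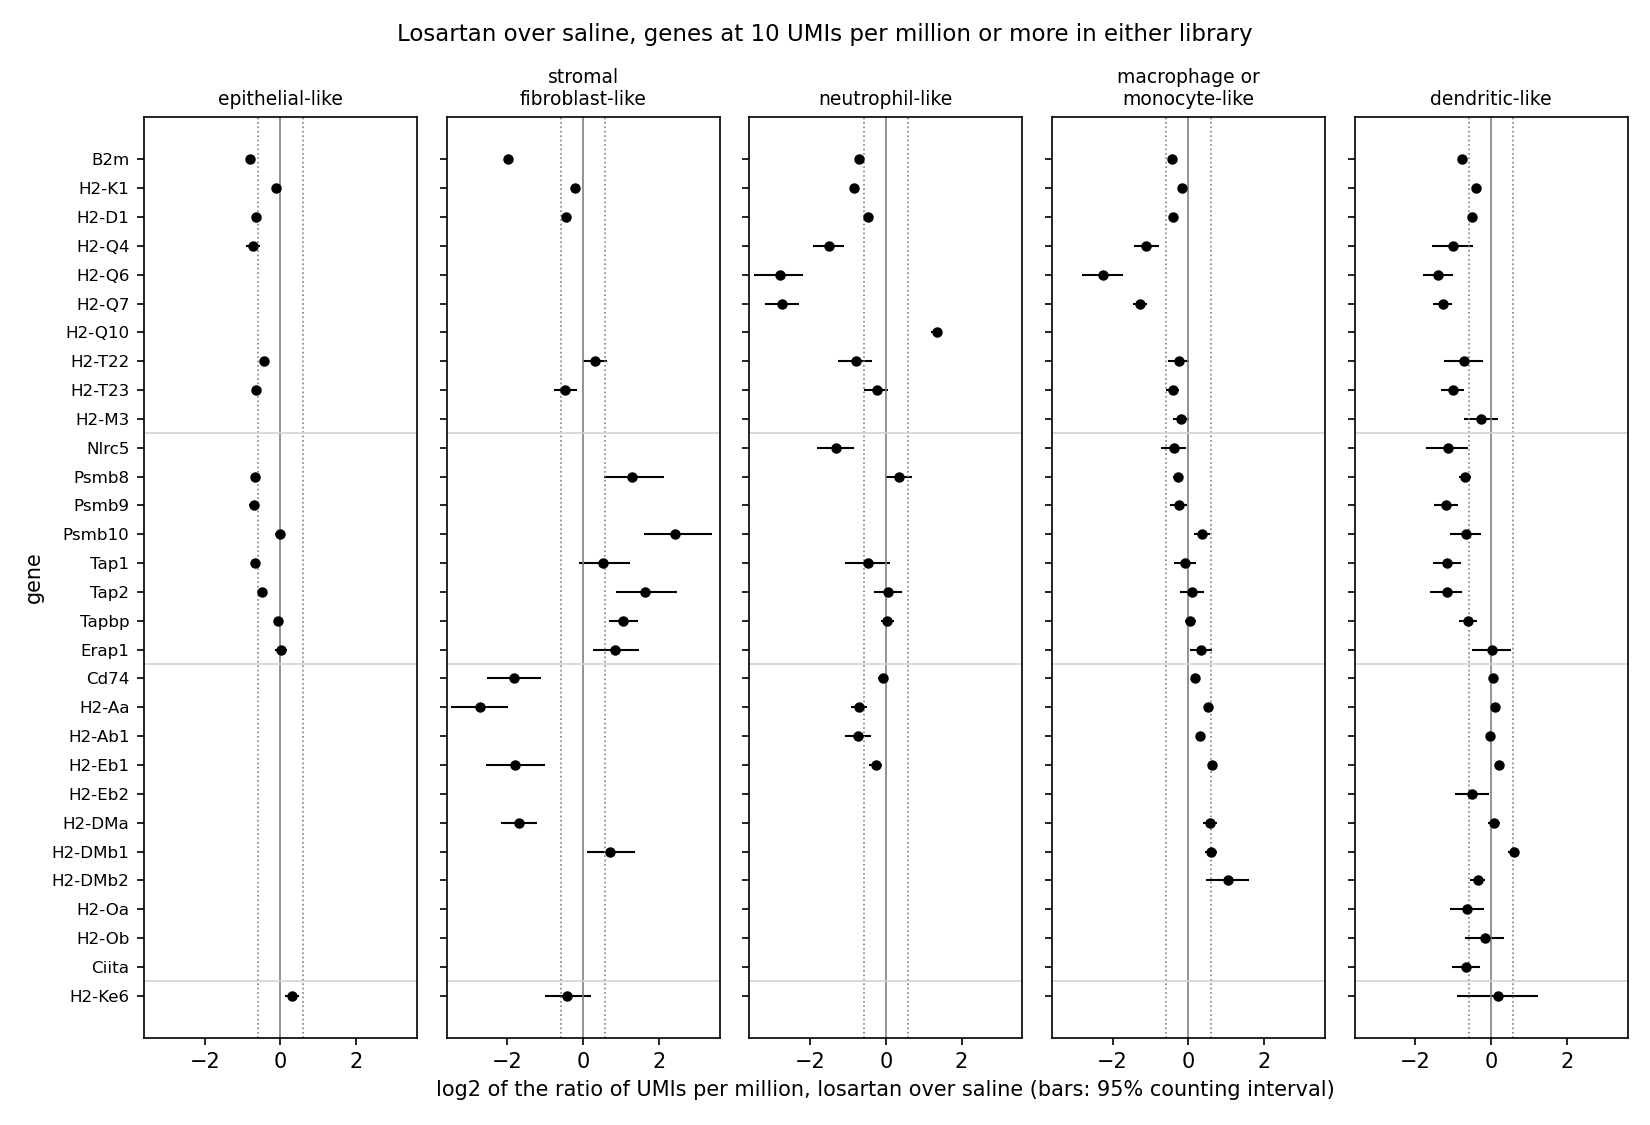
Ratio of losartan to saline (log2, horizontal axis) for each member measured in a cell class (rows) in 5 cell classes, with exact 95% counting intervals as bars and dotted lines at 1.5-fold. In dendritic-like cells the class I and processing genes other than Erap1 lie left of 0, H2-Aa, H2-Ab1, H2-Eb1 and Cd74 lie near 0 and H2-Eb2 lies left of it, and the H2-Q6 and H2-Q7 points lie left of 0 in the 3 myeloid classes.

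The dendritic-like class differed between the libraries in its own markers, so the result is also given within a split by Ccr7, the chemokine receptor gene of migrating mature dendritic cells. Ccr7 was at 1394 CPM under losartan and 2359 CPM under saline. In cells with a Ccr7 UMI (56 under losartan, 73 under saline) the class I ratio was 0.670 (0.647 to 0.695), that of Tap1 and Tap2 together 0.461 and that of the 3 immunoproteasome subunits 0.585. In cells without one (34 and 20) these ratios were 0.647 (0.609 to 0.688), 0.406 and 0.682. The class II ratio turned from 1.12 (1.10 to 1.13) in cells with Ccr7 to 0.885 (0.869 to 0.901) in cells without it. H2-DMb1 was past 1.5-fold with Ccr7 (511 and 337 CPM) and not without it (1002 and 853 CPM). This split was also chosen after the data were seen.

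Of the interferon gamma axis, Irf1 was lower in dendritic-like cells, at 103 CPM under losartan and 222 CPM under saline, and no gene of that list was higher. The proteasome activator gene Psme2 (388 and 617 CPM) and Tapbpl were the 2 of 11 class I supply genes that were lower, against 8.15% of all genes. The standard subunit genes Psmb5, Psmb6 and Psmb7 were within 1.5-fold. March1 was the 1 of 7 class II supply genes that was higher (22.5 and 10.7 CPM), against 8.92% of all genes, and none of the 3 co-stimulatory genes passed the fold rule.

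Neutrophil-like cells, which are not classed as professional antigen-presenting cells, had class I levels between those of epithelial-like and macrophage-like cells. The class I sum under losartan was 0.663 (0.647 to 0.680) of the saline value. Of 18 measured members 9 were lower under losartan and 1 was higher, against 6.76% and 12.6% of all genes. The lower ones were H2-K1 (373 CPM under losartan, 671 CPM under saline), B2m (698 and 1148 CPM), Nlrc5, H2-Q4, H2-Q6, H2-Q7, H2-T22, H2-Aa and H2-Ab1. Most losartan cells lie in cluster 2 (1095 of 1375), led by S100a8 and S100a9, and most saline cells in cluster 0 (2190 of 2985), led by Ccl3 and Ccl4. Class I was lower under losartan within each, with 1934 and 3018 CPM in cluster 0 and 2185 and 3745 CPM in cluster 2. In cluster 2, 12 of 20 measured members were lower and 3 higher (H2-Aa, H2-Eb1 and Cd74), against 4.61% and 24.0% of all genes. In cluster 0, 5 of 19 were lower (B2m, H2-D1, H2-Q4, H2-Q6 and H2-Q7) and 3 higher (H2-Q10, H2-T24 and Cd74), against 10.7% and 9.32%. H2-Aa and H2-Ab1 were lower in neither cluster, and H2-K1, Nlrc5 and H2-T22 only in cluster 2.

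The class II sum turned with that makeup. It was 373 CPM under losartan and 458 CPM under saline over all neutrophil-like cells, a ratio of 0.815 (0.767 to 0.865). Within cluster 0 it was 781 and 571 CPM (ratio 1.37, 1.26 to 1.49), and within cluster 2 it was 263 and 153 CPM (1.72, 1.54 to 1.94). Ciita had 0 UMIs in both libraries of this class, which allows up to 0.829 CPM under losartan and 0.255 CPM under saline. At 1500 UMIs per cell Cd74 was seen in 16.2% of losartan and 18.0% of saline neutrophil-like cells, against 0.522% and 1.10% of epithelial-like cells (22.9% and 30.4%, against 6.30% and 10.3%, before thinning). H2-Aa gave 0.333 UMIs per Cd74 UMI under losartan and 0.515 under saline in neutrophil-like cells, and 0.634 and 0.507 in macrophage-like cells.

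The H2-Q genes gave the most unequal values among the class I genes of neutrophil-like cells. H2-Q6 was at 6.35 CPM under losartan and 44.1 CPM under saline (ratio 0.144, 0.0905 to 0.218), and H2-Q7 at 12.2 and 80.5 CPM (0.151, 0.109 to 0.204). H2-Q10, which encodes a secreted class I chain best known from the liver, was at 198 and 77.8 CPM (2.54, 2.30 to 2.80). The opposite directions were present within both clusters. In cluster 2, H2-Q7 had 11.2 and 103 CPM and H2-Q10 228 and 157 CPM, and in cluster 0, H2-Q7 had 15.6 and 72.1 CPM and H2-Q10 83.3 and 48.4 CPM. The H2-Q10 difference in cluster 2 (ratio 1.45) was under 1.5-fold. H2-Q10 was at or under 3.22 CPM in losartan and saline dendritic-like, macrophage-like, epithelial-like and stromal fibroblast-like cells. These genes lie next to each other (H2-Q6 at 35424850 to 35430055, H2-Q7 at 35439155 to 35443773 and H2-Q10 at 35470089 to 35474563 of chromosome 17). Of their 60-base stretches 19.25%, 16.58% and 15.0% occur in another member, so how reads were assigned between them is uncertain, and the strain of the animals, which sets the H2-Q genes present, is not known.

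The 2 regulators had their own distribution. Ciita was mainly a dendritic-like gene, at 74.8 CPM under losartan and 118 CPM under saline, and at 105 CPM (3 UMIs) in the 5 uninjured cells. It was at 5.93 and 2.58 CPM in macrophage-like cells and at 0.156, 0.0240 and 0.0428 CPM in epithelial-like cells of the losartan, saline and uninjured libraries. In stromal fibroblast-like cells it was at 0.360 CPM (4 UMIs) under losartan and had 0 UMIs under saline and in the uninjured library, which allows up to 1.26 and 0.725 CPM. Nlrc5 was seen in every class, at 29.8 and 66.0 CPM in dendritic-like, 22 and 28.7 CPM in macrophage-like and 11.6 and 28.7 CPM in neutrophil-like cells. In epithelial-like cells it was at 2.48, 6.02 and 4.11 CPM in the losartan, saline and uninjured libraries.

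The smaller classes gave values with wide intervals. In Schwann-like cells (125, 77 and 100 cells in the losartan, saline and uninjured libraries) class I was at 1155 CPM (1052 to 1265), 1803 CPM (1631 to 1988) and 1604 CPM (1458 to 1762). Cluster 20 held 122, 60 and 52 of these cells, with 1144, 1764 and 644 CPM (503 to 813 in the uninjured library). Within that cluster the uninjured value was therefore the lowest, which it was not over the whole class. Class II was at 32.4 and 53.6 CPM under losartan and saline, and at 0 in the uninjured library, where 3 counts are 10.99 CPM. Mural-like cells (57, 7 and 84) had 1440, 3318 and 1103 CPM of class I. Vascular endothelial-like cells (28, 15 and 26) had 3122, 10703 and 3854 CPM, above the fibroblast-like cells in each library. Their class II sum was 11.3, 1434 and 31.7 CPM, from 4, 41 and 9 UMIs. The saline cells of this class were shallow, with a median of 1332 UMIs.

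The genes outside the 45 whose level followed the sums most closely over the 17 combinations of class and library with 50 or more cells are given as a description, since the points share libraries. For class II they were Nrros (Pearson r = 0.97), AI662270, Cd86, Epsti1 and Pik3r6, and for class I Gm42031 (0.90), Cyba, Alpk2, Sh3kbp1 and Prcp (0.88), out of 11112 genes ranked. Epsti1 is on the dendritic marker list that named the clusters, so its place is partly built in. Of the 45 members, 30 reached 10 CPM in at least 1 class of a library. 9 had 0 UMIs in all kept cells, namely H2-T3, H2-M1, H2-M11 and the 6 H2-M10 genes. The other 6 had UMIs but stayed under 10 CPM, with H2-T24 the highest at 8.93 CPM in saline Schwann-like cells.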

How the data were processed

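Single-cell RNA from cornea and limbus was measured in 3 libraries, 1 per group. The deposited values are raw UMI counts per gene and cell barcode, which the authors made with version 8.0.0 of Cell Ranger (per the file headers) on GRCm38 (per the submitters' processing notes). The annotation release, intron counting and the kit's read end are not stated in those sources. The lowest deposited barcode had 500 UMIs, and the library totals were 92753670, 83155441 and 177003042 UMIs (losartan, saline, uninjured).

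Barcodes with at least 500 genes and at most 20% mitochondrial UMIs were kept, and doublets were removed by score at 0.8% per 1000 cells, with 2 simulated doublets per cell (243, 334 and 1334 cells). Cells were clustered without the 45 genes (2000 variable genes, 30 principal components, 20 neighbours, Leiden resolution 0.8) and named from 15 marker lists. Among other rules, a name needed a score gap of at least 0.12 or a marker of the class among the cluster's top 10 genes. Cluster 16 had no such marker, and its cells took the names they had at resolution 1.2. That gave 69 vascular endothelial-like, 39 mural-like and 337 unnamed cells. Uninjured cluster 1 passed narrowly, with a gap of 0.125. Counts were summed per class and library and scaled to CPM. A gene was measured at 10 CPM or more in either library and called at 1.5-fold on CPM + 5. Intervals (exact Poisson, exact conditional binomial for ratios, Clopper-Pearson for shares, 95%) cover counting error only, and a count of 0 was read as allowing 3 counts. Shares of cells were also given after thinning each cell to 1500 UMIs.

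The members and all gene lists were chosen with earlier results of these data known. Values are given for members at 10 CPM or more in a library of the class, and the others by count or range, except where a low value is named for a regulator or a class II gene. Positions are from GENCODE M21 (GRCm38) and promoters from RefSeq (GRCm38.p6), where 38 members matched 41 windows. One gene of the interferon gamma axis list is not reported here. Calls were tested on simulated counts. Alternatives were the scaling, pseudocount, minimum level, cell filters, doublet removal, cluster resolution, members kept for clustering, and a mean over cells. Tools were Python 3.11.15, NumPy 2.4.6, SciPy 1.17.1, pandas 2.3.3, scikit-learn 1.9.0, igraph 0.11.9, leidenalg 0.10.2 and Matplotlib 3.10.9.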

Additional observations from a re-analysis of the deposited data

How the results depend on the processing

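Of 115 recomputed values, 74 moved by less than their counting interval or stayed within 1.5 times the main count, 40 moved and 1 reversed. All sums here are log2 ratios. Epithelial class I, saline over uninjured, was 1.70, and was 1.74 with cells of 200 or more genes, 1.44 at resolution 0.4, 1.73 at resolution 1.2, 1.59 as a mean over cells, 1.68 without cells holding myeloid RNA and 1.55 with unnamed epithelial-scored clusters included. Losartan over saline in the same class was -0.50, and -0.39 with median-of-ratios scaling, -0.52 without doublet removal, -0.40 as a mean over cells, and -0.46, -0.53 and -0.10 within clusters 5, 6 and 15. Stromal class I, saline over uninjured, was 1.14, and 1.59 with that scaling, 1.203 without doublet removal, 1.34 as a mean over cells and 2.18 within cluster 10. Stromal losartan over saline was -1.24, and -1.62 with that scaling, -1.04 with cells of 200 or more genes and -0.63 as a mean over cells; within cluster 10 it reversed to 0.028. Macrophage-like class I was -0.39, and -0.46 with that scaling, -0.43 without doublet removal and -0.42 at resolution 0.4. Macrophage-like class II was 0.36, and 0.29 with that scaling, 0.31 without doublet removal, 0.39 with cells of 200 or more genes, 0.49 at resolution 0.4, 0.43 with the members kept for clustering, 0.23 as a mean over cells and 0.42 after subtracting the neutrophil level. Dendritic-like class II was 0.09, and 0.073 with the members kept and 0.033 as a mean over cells; resolution 0.4 gave no dendritic-like class of 50 cells in both libraries and so no value. With no minimum level the higher members were 13 in epithelium (saline over uninjured, 7 with it), 4 in stroma (losartan over uninjured, 2 with it) and 2 in neutrophil-like cells (1 with it). With CPM + 1, 2 epithelial members were lower under saline than uninjured (1 with CPM + 5). With median-of-ratios scaling the lower members were 1 in epithelium (losartan over saline, in place of 5) and 2 in stroma (saline over uninjured, in place of 6), stroma under losartan had 2 higher and 9 lower than under saline (5 each before), and macrophage-like cells had 0 higher in place of 2. The cause was not tested beyond what each setting changes by its construction.

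No paired analysis was possible because each group has 1 library, and no replicate could be left out. The values within clusters, with unnamed clusters, by Ccr7 and by range of class II were chosen after seeing the data. The uninjured library held 13 macrophage-like and 5 dendritic-like cells, so no comparison of these with the injured libraries is made. The stromal class II genes called (H2-Aa, H2-Eb1, Cd74) rest on 26 to 38 UMIs each under saline.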

Other observations

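Some uninjured cells outside the named classes had high immunoproteasome RNA. In cluster 12, 634 uninjured cells that passed no naming rule and had Psca and Muc4 among their leading genes, Psmb8 was at 302 CPM (294 to 311), Psmb9 at 72.9 CPM and Psmb10 at 60.9 CPM. The heavy chain genes H2-K1 and H2-D1 were at 387 and 376 CPM there, and B2m at 46.5 CPM. In uninjured epithelial-like clusters 1, 3 and 7, Psmb8 was at 11.2, 14 and 14.3 CPM, and in cluster 11 it was at 93.0 CPM.

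Schwann-like cells of the uninjured library held the non-classical chain H2-Q4 at 125 CPM (86.3 to 174, 34 UMIs in 17 of 100 cells), against 12.5 CPM (5 UMIs) under losartan and 17.9 CPM (4 UMIs) under saline. The activator Nlrc5 was at 69.6 CPM there (19 UMIs in 13 cells), against 2.50 CPM (1 UMI) under losartan and 13.4 CPM (3 UMIs) under saline. B2m was at 531, 861 and 755 CPM in Schwann-like cells of the losartan, saline and uninjured libraries. Cluster 20 held 52 of the 100 uninjured cells and 122 of the 125 losartan ones. In mural-like cells H2-Q4 and Nlrc5 were also highest in the uninjured library. H2-Q4 was at 89.7 CPM (34 UMIs) uninjured, against 19.996 CPM (11 UMIs) under losartan and 37.7 CPM (4 UMIs) under saline. Nlrc5 was at 36.9 CPM (14 UMIs), against 1.82 CPM (1 UMI) and 0 UMIs. The 7 saline mural-like cells are too few for a firm comparison.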
